A study of Mus musculus with 16 samples.

Results

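The comparison described here sets the 5 libraries with the highest level of Slc2a2 against the 5 with the lowest, out of 16 libraries of mouse ileum mucosa RNA. Slc2a2 encodes GLUT2, the glucose and fructose transporter of the enterocyte. The 16 libraries were ranked by Slc2a2 CPM (the count as a share of the library total, scaled to 1e6), both genotypes together. The members were thus chosen by their own Slc2a2 values: 10 of 16 libraries stand on a side and 6 lie between. Because the ranking used these same libraries, every difference between the sides is given as a description with no test, and Slc2a2 itself is left out of the findings.

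The study compared Slfn3KO mice, in which the Schlafen family gene Slfn3 is knocked out, with WT littermates of the C57Bl/6 background. There were 4 groups of 4 mice each, labelled Male WT, Male Slfn3KO, Female WT and Female Slfn3KO, all aged 8 weeks per the labels. The labels call the tissue intestinal mucosa and the study's methods ileum mucosa, and the methods give an older age. No drug, tissue-restricted promoter or Cre is named, and each library is 1 mouse. Nothing in the sources used here says from which stretch of the ileum each piece of mucosa was taken.

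The small intestine changes its work along its length. Enterocytes near the stomach make lactase and the machinery for taking up sugars, fat, vitamins and peptides, and the transcription factor GATA4 marks and maintains this proximal program. Enterocytes of the distal ileum reclaim bile acids with the uptake transporter Slc10a2, the cytosolic binding protein Fabp6 and the exporter Slc51a with Slc51b, and the nuclear receptor Nr1h4 (FXR) senses those bile acids. Hox genes carry positional identity along the gut axis.

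Promoters are shown for lactase (Lct) and the liver-type fatty acid binding protein Fabp1, which were far higher in the Slc2a2-high libraries, for Hoxb8, which was far lower, and for Fabp6 and Slc10a2, the ileal markers that define the distal end. Each is the 250 bases before the transcription start in the RefSeq annotation of GRCm38.p6, written from the 5′ to the 3′ end of the gene's own strand. Capitals mark the GATA motif AGATAA, the HNF1 half-site GTTAAT and the CDX motif TTTATG, each searched on both strands, and none of the marked motifs overlapped in these windows.
Lct promoter (chr1:128328319-128328568, minus strand): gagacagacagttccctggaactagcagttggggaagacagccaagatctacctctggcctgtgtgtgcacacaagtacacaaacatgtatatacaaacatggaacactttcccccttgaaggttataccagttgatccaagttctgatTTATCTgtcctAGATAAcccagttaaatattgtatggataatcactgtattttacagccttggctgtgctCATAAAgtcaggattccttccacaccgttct
Fabp1 promoter (chr6:71199629-71199878, plus strand): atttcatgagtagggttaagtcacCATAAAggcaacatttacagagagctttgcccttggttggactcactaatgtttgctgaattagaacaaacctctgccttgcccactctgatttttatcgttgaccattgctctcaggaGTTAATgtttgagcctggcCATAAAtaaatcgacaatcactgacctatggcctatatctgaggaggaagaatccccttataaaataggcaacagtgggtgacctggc
Hoxb8 promoter (chr11:96281655-96281904, plus strand): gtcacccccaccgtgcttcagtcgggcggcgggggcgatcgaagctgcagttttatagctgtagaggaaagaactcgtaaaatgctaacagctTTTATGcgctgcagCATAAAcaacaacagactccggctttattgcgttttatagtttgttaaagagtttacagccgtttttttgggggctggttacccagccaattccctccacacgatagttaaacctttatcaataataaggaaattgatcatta
Fabp6 promoter (chr11:43601563-43601812, minus strand): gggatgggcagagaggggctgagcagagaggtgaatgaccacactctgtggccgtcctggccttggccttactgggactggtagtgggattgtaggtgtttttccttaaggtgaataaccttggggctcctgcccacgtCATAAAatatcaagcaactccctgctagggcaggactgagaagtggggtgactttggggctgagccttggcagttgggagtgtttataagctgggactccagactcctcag
Slc10a2 promoter (chr8:5105288-5105537, minus strand): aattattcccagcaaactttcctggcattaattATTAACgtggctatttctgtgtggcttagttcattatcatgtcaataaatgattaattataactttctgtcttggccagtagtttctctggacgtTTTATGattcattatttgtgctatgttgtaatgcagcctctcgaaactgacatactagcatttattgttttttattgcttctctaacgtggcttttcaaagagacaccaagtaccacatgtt

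The Lct window held 2 GATA motifs, at 101 to 96 and at 90 to 85 bases before the start, and 1 CDX motif at 31 to 26 bases before it. Fabp1 held 1 HNF1 half-site and 2 CDX motifs, Slc10a2 held 1 of each of these, Fabp6 held 1 CDX motif and Hoxb8 held 2 CDX motifs. Among the 27025 genes with such a window, 10.3% held the GATA motif, 6.52% the HNF1 half-site and 11.1% the CDX motif, and among the 10787 tested genes with a window these shares were 6.27%, 4.03% and 6.19%. Of the 273 genes called higher in the Slc2a2-high libraries, 217 had a window, and 10.6%, 11.5% and 8.76% of these held the motifs in the same order. Of the 145 called lower, 97 had a window, with 9.28%, 3.09% and 11.3%. A match of letters is not evidence that a factor binds there.

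From the first library to the last, Slc2a2 covered a 312-fold range. The 5 Slc2a2-high libraries were Male Slfn3KO 4, Male WT 2, Female WT 1, Male WT 4 and Female WT 2, with 177, 134, 122, 86.9 and 64.6 CPM. The 5 Slc2a2-low libraries were Female WT 4, Female WT 3, Female Slfn3KO 4, Female Slfn3KO 2 and Female Slfn3KO 1, with 2.4, 1.22, 1.03, 0.672 and 0.569 CPM. In this order the values of each gene are listed below. The libraries just outside the sides were Male Slfn3KO 2 at 48.1 CPM and Male WT 3 at 2.83 CPM.

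Both genotypes stood on both sides. The Slc2a2-high side held 4 WT and 1 Slfn3KO libraries, the Slc2a2-low side 2 WT and 3 Slfn3KO, and the middle 2 WT and 4 Slfn3KO. The genotype mix of the sides did not pass an exact test, which has 10 libraries to work with (Fisher's exact test, two-sided, p = 0.524). By label the Slc2a2-high side was 3 male and 2 female and the Slc2a2-low side 5 female (Fisher's exact test, two-sided, p = 0.167).

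Sex transcripts went against the sex label in 4 libraries. Totals lay between 20823279 and 30813117 counts, so that 3 counts in a library amount to 0.0974 to 0.144 CPM, the floor used here, which covers counting error only. Mitochondrially encoded genes took 2.52% to 3.75% of the counts in the Slc2a2-low side and 2.61% to 3.74% in the Slc2a2-high side. Xist and Ddx3y contradicted the label in Male WT 4 of the Slc2a2-high side, in Female WT 3 and Female WT 4 of the Slc2a2-low side and in Male WT 3 of the middle. By these transcripts each side was 2 male and 3 female (Fisher's exact test, two-sided, p = 1). Slfn3 had 0 to 2 counts in the Slfn3KO libraries and 0 to 19 in the WT libraries, so it cannot check the genotype label of a single library. The last number in the library names of the labels was 2 to 10 on the Slc2a2-high side and 11 to 16 on the Slc2a2-low side. These numbers run with the labelled groups, and the groups and the numbers cannot be told apart.

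The fixed ileal markers did not separate the sides, and the libraries are therefore named by the ranking gene rather than as proximal or distal. Fabp6 in the Slc2a2-high libraries was 2496, 1717, 1497, 11758 and 16220.5 CPM, and in the Slc2a2-low libraries 8125, 9322, 8700.1, 10281 and 6719 CPM. The 3 lowest Fabp6 levels of all 16 were thus in Slc2a2-high libraries, while Female WT 2, also Slc2a2-high, had the highest of all. Slc10a2 was 57.7, 111, 41.9, 227 and 179 CPM against 449, 341, 443, 167 and 373 CPM, and the sides overlapped only through Female Slfn3KO 2. On the scale used for all folds below, the mean of TMM-normalized log2 CPM in the high minus the low side, Fabp6 differed by -0.83 and Slc10a2 by -1.5. All 16 libraries held both transcripts well above the floor.

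**Figure D1:**
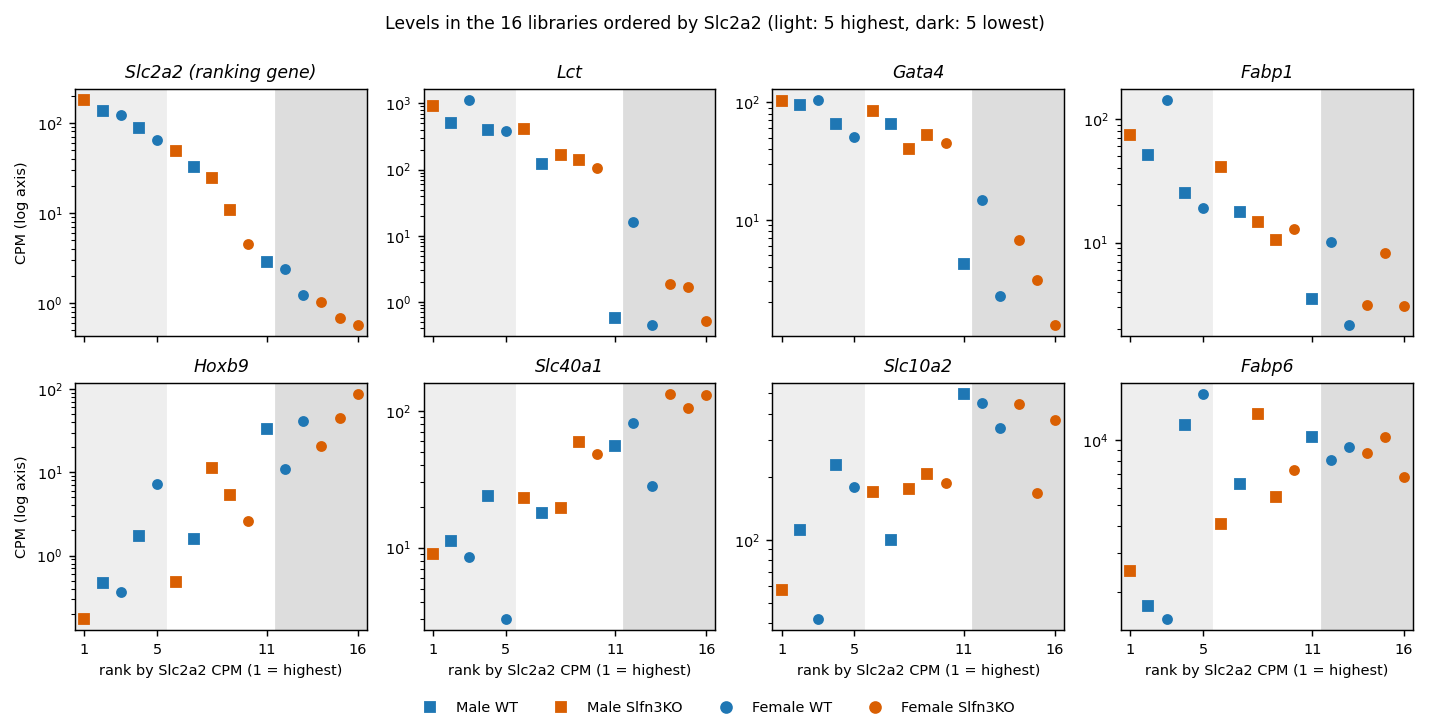
CPM (log axis) of 8 genes in the 16 libraries, ordered from left to right by Slc2a2 rank, with the Slc2a2-high side shaded light and the Slc2a2-low side dark. Squares are libraries labelled male and circles female, blue is WT and orange Slfn3KO. Lct and Gata4 drop steeply at the 11th rank, Hoxb9 and Slc40a1 climb, and Fabp6 spans 1497 to 16220 CPM without separating the sides.

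Across 14376 tested genes, 273 (1.9%) were at least 2-fold higher in the Slc2a2-high side with no overlap between the sides, and 145 (1.01%) were lower in the same way. Without regard to the fold, 1476 genes (10.3%) did not overlap. The median log2 fold of all genes was -0.04, and 45.4% of all genes had a positive fold. TMM scaling factors were 0.809 to 1.03 in the Slc2a2-high libraries and 0.963 to 1.18 in the Slc2a2-low libraries. With plain CPM in place of TMM factors the median of all genes was -0.25, and 24.9% of all genes had a positive fold. By plain CPM 189 genes were called higher and 275 lower. The balance of directions, and the counts of signs in the lists below, thus depend on the scaling. Without the 4 libraries whose sex transcripts go against the label the counts were 191 and 127, of which 158 and 43 were among the genes called above. These sides shared 7 libraries with the main split, and their low side was all Slfn3KO while the high side held both genotypes. A gene at or past these limits is said below to be called.

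Of the proximal enterocyte genes, 22 of 41 tested were called higher and 0 lower, and 38 had a positive fold, with a median of 1.4. These 41 are the listed genes that passed the filter on low counts out of 45 listed, Slc2a2 being left out. Their summed level was 45875 to 62276 CPM in the Slc2a2-high libraries and 15030 to 33581 CPM in the Slc2a2-low libraries, so the sums did not overlap either. The gene with the largest fold of the whole table was in this list. Several lists described below share members with it, so their counts are not separate from these.

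Lct, which splits the milk sugar lactose, was 921, 511, 1115, 401 and 379 CPM in the Slc2a2-high libraries and 15.9, 0.451, 1.86, 1.68 and 0.522 CPM in the Slc2a2-low libraries. The log2 fold was 8.62. Every Slc2a2-high library stood above every Slc2a2-low library, and Female WT 4 was the highest on its side. In the middle libraries Lct was 407, 122, 169, 141 and 107 CPM in the first 5 and 0.573 CPM in Male WT 3, next to the Slc2a2-low side.

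Gata4 separated the sides in the same direction. It was 103, 94.7, 104, 64.8 and 50.1 CPM in the Slc2a2-high libraries and 14.8, 2.26, 6.75, 3.07 and 1.28 CPM in the Slc2a2-low libraries, a log2 fold of 4.54. Its relatives Gata5 (0.61) and Gata6 (0.34) were not called. Of 24 regional transcription factors tested, Gata4 was the 1 called higher, and Nr1h4, Hoxb6, Hoxb7 and Hoxb8 were the 4 called lower. The general intestinal factors Cdx2 (0.23), which sets intestinal identity, and Hnf4a (0.25), which drives enterocyte genes, were not called.

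Sugar handling was higher on the Slc2a2-high side in 8 of 18 genes tested, with 0 called lower and a median of 1.11. The called genes Lct, Sis, Slc2a5, Khk and Pck1 are also on the proximal enterocyte list. Slc5a4b, of the sodium-dependent sugar transporter family, averaged 143 ± 9.78 CPM against 11 ± 8.42 CPM (SD, n = 5 each), a log2 fold of 4.23. The fructose transporter Slc2a5 was 153, 143, 116, 112 and 127 CPM against 99.5, 35.1, 67.9, 53.9 and 51.4 CPM, with a fold of 1.37. Sucrase-isomaltase (Sis), the disaccharidase of the whole small intestine, differed less, by 1.07, with 3301, 4409.5, 2381, 3858 and 2574 CPM against 2278, 1315, 2464, 1300.2 and 1859 CPM in plain CPM, where Female WT 1 and Female Slfn3KO 4 overlapped. They did not overlap after TMM normalization. The main sodium-glucose transporter Slc5a1 (0.88) was not called.

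Fat absorption genes were called higher in 8 of 24 and lower in 0, with a median of 1.01. All 8 called genes are also on the proximal enterocyte list and were counted there. Fabp1, which binds fatty acids in the cytosol, was 74.5, 51.3, 141, 25.3 and 18.9 CPM against 10.1, 2.17, 3.13, 8.21 and 3.08 CPM, a log2 fold of 3.62. Fabp2, the intestinal fatty acid binding protein, was 16036, 13194, 17809, 12897 and 15968 CPM against 6292, 2311, 4650.4, 1889.8 and 2098 CPM, with a fold of 2.52. For both genes every Slc2a2-high library stood above every Slc2a2-low library. The fatty acid receptor Cd36 (3.19), the lipoprotein regulator Apoc3 (2.8), the lipid transcription factor Creb3l3 (2.09) and the cholesterol uptake protein Npc1l1 (1.4) were also called.

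Some members of the same pathway overlapped in spite of a large fold. Apoa4, a chylomicron apolipoprotein, was 2983, 1911, 2628, 366 and 717 CPM against 551, 441, 512, 54.7 and 124 CPM. Its log2 fold was 2.65, and Male WT 4 lay within the Slc2a2-low range. Apoa1, the main protein of high-density lipoprotein, was called at 1.57, as was Rbp2, the cellular retinol carrier, at 2.17. The lipid transfer protein Mttp, needed to assemble chylomicrons, missed the call at 1.03 through overlap.

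Drug and steroid metabolism was called higher in 8 of 22 genes and lower in 0, with a median of 1.0. The called genes Cyp3a11, Cyp2b10 and Cyp2d26 are also on the proximal enterocyte list. Cyp2b10, a cytochrome P450 induced through the receptor CAR, was 49.7, 14.6, 7.65, 39.7 and 15.2 CPM in the Slc2a2-high libraries and 1.33, 0, 0.0794, 0.336 and 0.0949 CPM in the Slc2a2-low libraries. The log2 fold was 6.43, and 3 of the 5 low values were at or under the floor of 3 counts, so this fold rests in part on the prior count. Cyp3a11, the main drug-metabolizing P450 of its family, was 249.7, 44.5, 63.8, 490.1 and 62.2 CPM against 18.4, 8.67, 17.4, 19 and 10.5 CPM, with a fold of 3.26. Nr1i3, which encodes CAR, was called at 2.52, while its relative Nr1i2, which encodes PXR, was not at 0.19.

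Brush border peptidases and amino acid transporters were called higher in 5 of 21, with a median of 0.69. The peptide transporter Slc15a1 averaged 1248 ± 138 CPM against 378 ± 142 CPM (SD, n = 5 each), a log2 fold of 2.01. The amino acid transporters Slc7a8 (2.7) and Slc16a10 (1.86) and the peptidase Ace (1.72) were called, and the aminopeptidase Anpep (0.38) and the dipeptidyl peptidase Dpp4 (0.69) were not. Gip, the hormone of proximal K cells, was the 1 called gene of 5 tested proximal enteroendocrine genes, with 22.9 ± 4.58 CPM against 6.6 ± 3.11 CPM and a fold of 2.12.

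The other 7 of the 10 largest folds belonged to genes of no list. Plb1, a brush border phospholipase, was 2111, 1723, 2305, 1973 and 1414 CPM against 307, 16.8, 144, 34.4 and 11.9 CPM, a fold of 5.45. Enpp7, the alkaline sphingomyelinase, was 1023, 965, 1184, 575 and 511 CPM against 165, 19.5, 41.7, 15 and 7.26 CPM, a fold of 5.1. In both genes Female WT 4 was the highest of the Slc2a2-low libraries and still below every Slc2a2-high library. Fam151a (5.95), the acyl-CoA thioesterase Acot12 (5.4), the vitamin C transporter Slc23a1 (5.06), the nucleoside transporter Slc28a1 (4.9) and the nuclease Dnase1 (4.82) completed the 10 with Lct, Cyp2b10 and Gata4.

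**Figure D2:**
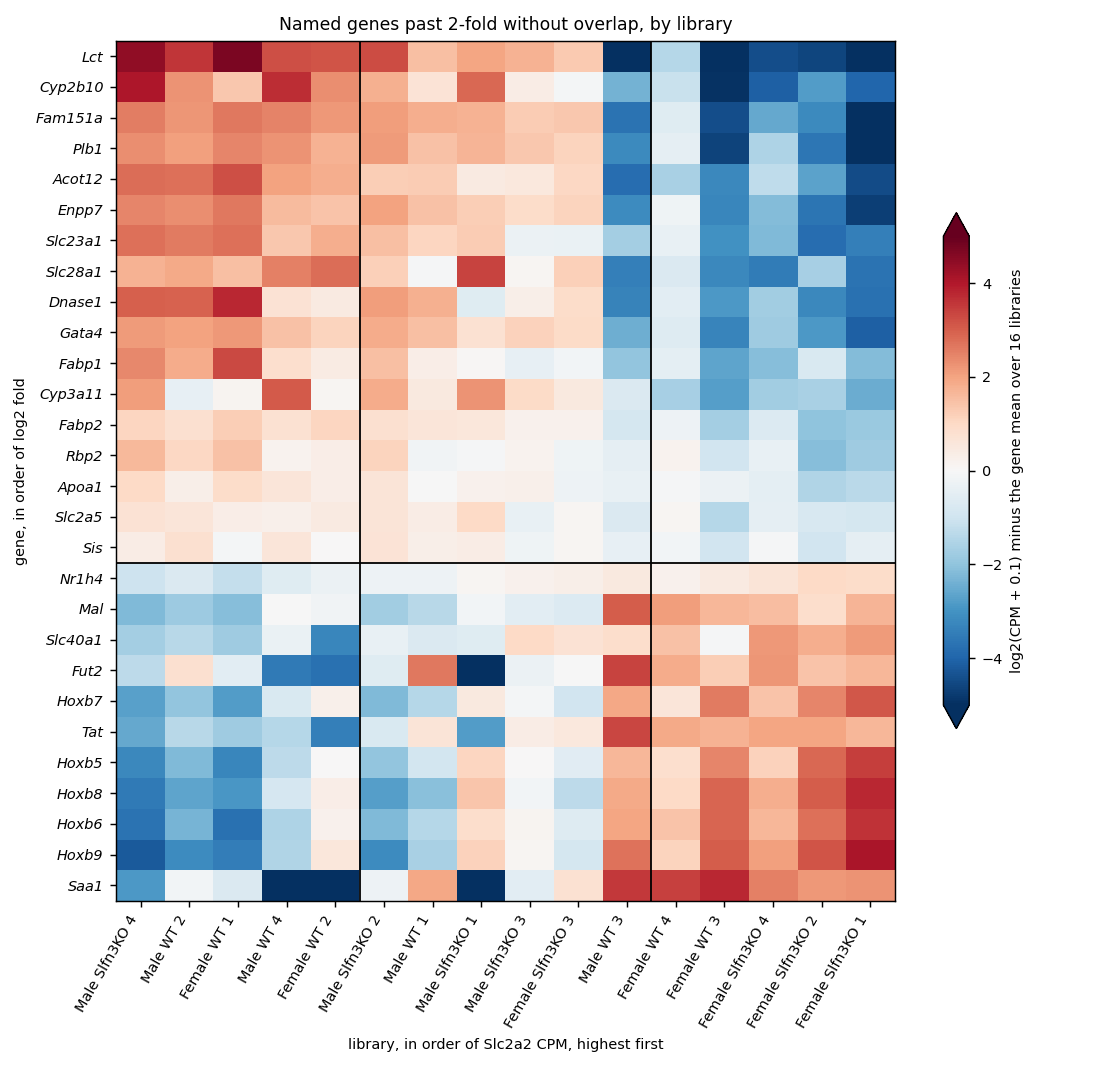
Named genes that were called, in order of log2 fold from top to bottom, against the 16 libraries in order of Slc2a2. Colour is log2(CPM + 0.1) minus the gene's mean over the 16 libraries, red above and blue below, and black lines part the sides, the middle libraries and the directions. Male WT 3, the last of the middle libraries, has the colours of the Slc2a2-low side.

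Genes of the Hoxb cluster, transcription factors of axial position, were higher on the Slc2a2-low side. All 7 tested Hoxb genes, Hoxb3 to Hoxb9, were called lower in the Slc2a2-high libraries, with log2 folds from -2.94 for Hoxb4 to -4.89 for Hoxb9, and they span chr11:96271457-96347930 of mm10. Hoxb6, Hoxb7 and Hoxb8 stood in the list of regional transcription factors, and the group of 39 Hox genes was drawn up after these values had been seen. Of its 9 tested members, Hoxa3 (-0.26) and Hoxc8 (-1.21) were not called.

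Hoxb9 was 0.173, 0.469, 0.366, 1.71 and 7.29 CPM in the Slc2a2-high libraries and 10.9, 41.4, 20.6, 44.6 and 86.1 CPM in the Slc2a2-low libraries. Hoxb8 was 0.0433, 0.167, 0.122, 0.835 and 2.01 CPM against 3.22, 12.4, 5.79, 13.4 and 22.5 CPM, with a fold of -4.35. Over the 5 libraries of a side this was 77 counts against 1250, and Male Slfn3KO 4 and Female WT 1 were at or under the floor of 3 counts, so the size of the fold rests in part on the prior count. Female WT 2 was the highest of its side for both and was also the Slc2a2-high library with the lowest Slc2a2. Hoxb6 (-4.56), Hoxb5 (-4.05), Hoxb3 (-3.78) and Hoxb7 (-3.49) did not overlap either. Hoxb13, listed with the colon genes and not tested, had 28 counts over the Slc2a2-high libraries and 1 count over the Slc2a2-low libraries.

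The bile acid and cobalamin genes of the ileum were mostly not called, with 1 of 14 lower and 0 higher and a median of -0.18. The called gene was Nr1h4, with 67.7, 84.1, 59.5, 90.6 and 113 CPM against 161, 189, 213, 275 and 263 CPM and a fold of -1.2. Its target hormone gene Fgf15 was 51.1, 31.9, 126, 104 and 108 CPM against 58.9, 132, 196, 144 and 81.4 CPM and overlapped, with a fold of -0.38. The bile acid exporter subunits Slc51a (-0.17) and Slc51b (-0.18) and the cobalamin receptor subunits Cubn (0.51) and Amn (0.94) were not called. The summed level of this list was 4926 to 21646 CPM in the Slc2a2-high side and 11162 to 14419 CPM in the Slc2a2-low side.

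Other genes called lower had varied known roles. Saa1, an acute phase protein that the distal gut epithelium also makes, was 6.28, 42.9, 28.6, 1.33 and 1.09 CPM against 501, 647, 267, 211 and 222 CPM, the most negative named fold at -5.43. Fut2, the fucosyltransferase of the epithelial surface, was 9.31, 40.4, 16.1, 1.86 and 1.62 CPM against 83.8, 54.4, 105, 61.1 and 72.5 CPM, a fold of -3.12. Both separated the sides, Male WT 2 being the nearest to the Slc2a2-low range. Saa1 is the 1 called gene of 14 villus base antimicrobial genes, and Reg3g (-1.81) and Reg3b (-1.84) overlapped. The tyrosine aminotransferase Tat (-3.76) and the membrane protein Mal (-2.66) were called as well.

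Of the iron genes 2 were called lower and 0 higher. Slc40a1, which encodes ferroportin, the basolateral iron exporter, was 9.05, 11.2, 8.51, 23.7 and 3.01 CPM against 82.3, 28.4, 132, 105 and 129.7 CPM, a log2 fold of -2.98. The iron reductase Cybrd1 was low throughout, with 1.11 ± 0.387 CPM against 2.69 ± 0.835 CPM (SD, n = 5 each) and a fold of -1.05. These were the called genes of the 9 on the list of duodenal iron uptake, and the importer Slc11a2 (0.04) was not called.

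**Figure D3:**
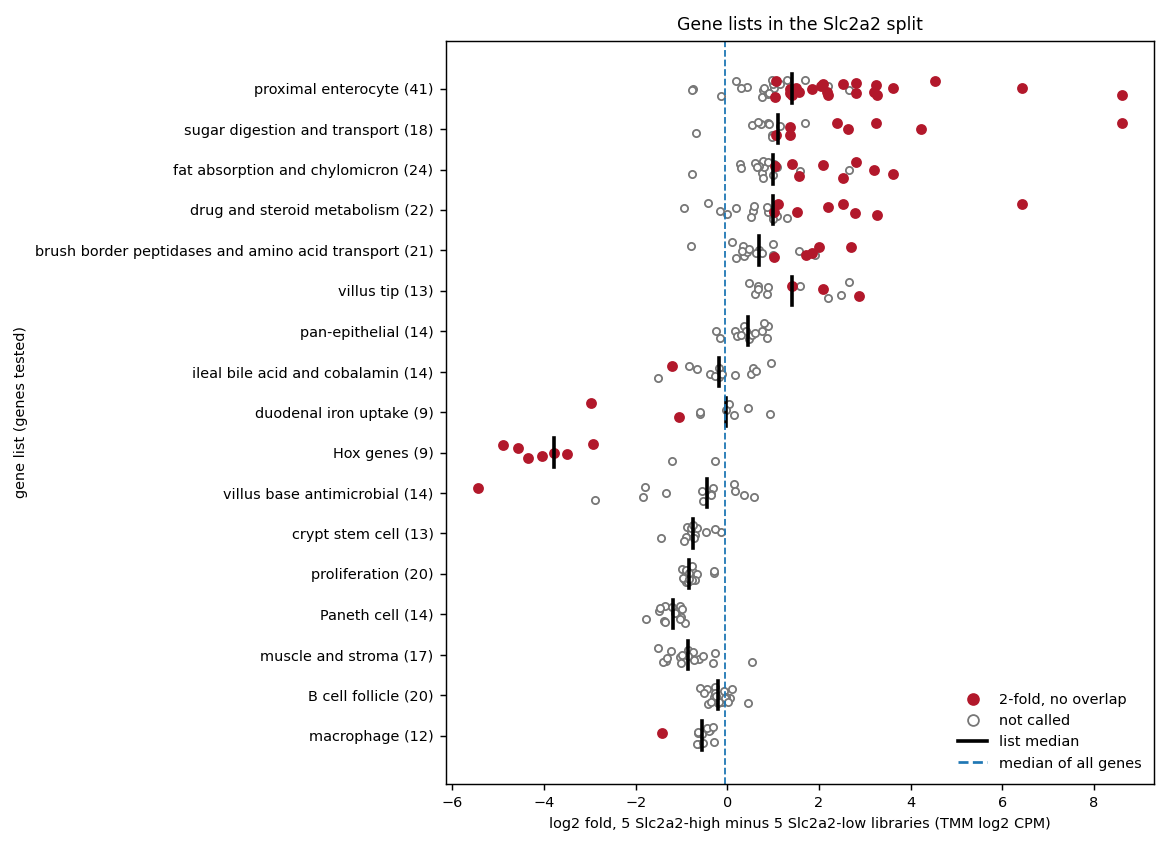
Log2 folds of the Slc2a2-high minus the Slc2a2-low side for 17 gene lists, 1 point per tested gene, red where the gene was called, with a bar at the list median and a dashed line at the median of all genes (-0.04). The medians of the absorptive lists lie right of the dashed line, from 0.69 to 1.4. A gene on more than 1 list is shown in each. The 14 Paneth, 13 crypt and 20 proliferation genes lie left of it with none called.

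Markers of epithelium as a whole were not called. The 14 pan-epithelial genes had a median fold of 0.44 with 0 called, and their summed level was 29469 to 33521 CPM against 22740 to 28786 CPM. Vil1, of the microvillus core, differed by 0.75 and Epcam, an adhesion molecule of all epithelial cells, by 0.47. These sums did not overlap, and their part in the other differences was not tested. Ranking by Slc2a2 relative to these 14 genes chose the same 10 libraries. The sums ran only from 22740 to 33521 CPM while Slc2a2 covered a 312-fold range, so dividing by them could hardly change the ranking. In bulk RNA, fewer cells of a type and less RNA per cell cannot be told apart.

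Genes of the villus tip and of the crypt had folds of opposite sign. Of the 13 villus tip genes all had a positive fold, with a median of 1.4 and 3 called. These were the nucleotidase Nt5e (2.87), Creb3l3 (2.09) and Npc1l1 (1.4). Creb3l3 and Npc1l1, like Ada and Apoa4 of this list, are also on the proximal enterocyte list, so the 2 lists are not separate. The summed level was 8329 to 14154 CPM against 3289 to 7328 CPM. The adenosine deaminase Ada, with 778, 739, 1179, 489 and 174 CPM against 199, 168, 353, 34.9 and 145 CPM, overlapped with a fold of 2.2. Of all 14376 genes tested, 7853 had a negative fold. All 13 crypt stem cell genes had a negative fold, with a median of -0.75, as did all 20 proliferation genes with -0.84 and all 14 Paneth cell genes with -1.18, none called. Their summed levels overlapped, with 149 to 511 CPM against 320 to 808 CPM for the crypt, 248 to 763 CPM against 536 to 1317 CPM for proliferation and 1144 to 6620 CPM against 2696 to 19260 CPM for Paneth cells. The part of these shifts in the other differences was not tested.

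Lists of cells outside the epithelium gave few calls. Of 17 muscle and stroma genes 16 had a negative fold, with a median of -0.87, 0 called and a summed level of 15.1 to 150 CPM against 52.1 to 207 CPM. Of 12 macrophage genes all had a negative fold, with a median of -0.54, and Itgam (-1.42) was called, while the summed level was 77.5 to 150 CPM against 122 to 292 CPM. The 20 B cell follicle genes had a median of -0.2 with 0 called and summed to 797 to 3807 CPM against 1817 to 4163 CPM. Most of that sum was Cd74, of antigen presentation, with 2458 ± 1287 CPM against 2382 ± 587 CPM (SD, n = 5 each). The heavy chain gene Ighm was 41.6 ± 33.1 CPM against 107 ± 133 CPM and Cd79a 9.4 ± 7.55 CPM against 24 ± 29.3 CPM, with SDs as large as the difference or larger on the Slc2a2-low side. The 10 plasma cell genes had a median of -0.77 with 0 called and summed to 1155 to 2742 CPM against 2040 to 5170 CPM. The 19 intraepithelial T lymphocyte genes had a median of 0.34, also with 0 called, and summed to 144 to 709 CPM against 222 to 458 CPM. Whether these cells have a part in the differences was not tested.

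Lists for neighbouring organs held genes that the small intestine also makes. The exocrine pancreas list summed to 4916 to 8280 CPM against 3674 to 6191 CPM, nearly all from Zg16, which goblet cells make, with 0 of 5 tested genes called. Its defining enzymes Cpa1, Pnlip and Amy2a5 did not exceed 0.0669 CPM in any library. The stomach list summed to at most 3.23 CPM in any library, with 0 called of 1 tested. Of 10 tested colon genes 8 had a negative fold, with a median of -0.26, and Saa1 was the 1 called. The colon list summed to 597 to 797 CPM on the Slc2a2-high side and 1060 to 1449 CPM on the Slc2a2-low side. These sums did not overlap, and Saa1 alone averaged 16 CPM against 370 CPM. The list members Car1 and Aqp8 stayed at or under 0.522 CPM. The part of these genes in the other differences was not tested. Of the adipocyte list Pck1 (3.24) and Cidec (1.78) were called, whereas Adipoq, which defines the cell type, did not exceed 2.43 CPM and was not tested.

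The split was repeated within each genotype, in mice that the other genotype does not share. Among WT libraries the 3 highest were Male WT 2, Female WT 1 and Male WT 4 and the 3 lowest Male WT 3, Female WT 4 and Female WT 3. Among Slfn3KO libraries the 3 highest were Male Slfn3KO 4, 2 and 1 and the 3 lowest Female Slfn3KO 4, 2 and 1, so that within Slfn3KO the sides are also the labelled sexes and cannot be told apart from them. In WT 307 genes (2.14%) were called higher and 1206 (8.39%) lower, and in Slfn3KO 419 (2.91%) and 459 (3.19%). With 3 libraries per side, no overlap is a looser limit than with 5. These counts are therefore not comparable with those of the main split.

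Of the genes called higher, 195 were called in both genotypes, which is 63.5% of the WT and 46.5% of the Slfn3KO genes. Of those called higher in WT, 96.4% had a positive fold in Slfn3KO, where 47.8% of all genes did, and their median fold there was 1.46. Of the genes called lower, 163 were called in both, 13.5% of the WT and 35.5% of the Slfn3KO genes. Of those called lower in WT, 74.0% had a negative fold in Slfn3KO, where 52.2% of all genes did, with a median of -0.34 there. Lct had folds of 8.63 in WT and 8.48 in Slfn3KO, Gata4 of 4.22 and 4.71, and Fabp1 of 3.91 and 3.22. Hoxb9 had -4.84 and -5.02, Saa1 -5.34 and -5.0, and Slc40a1 -1.73 and -2.72. All of these were called in both genotypes. They were also called in the main split, which shares 5 libraries with the WT split and 4 with the Slfn3KO split. Their calls within the genotypes are thus not separate from the main split.

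Genes of the B cell follicle had unlike folds within the genotypes. The B cell follicle list had a median of -4.57 within WT and of 0.03 within Slfn3KO. In the comparison of Slfn3KO with WT below, 20 of its 20 genes had a negative fold with 0 called, and the median, -3.004, was 0.16 without the 4 libraries. Cd79a, a signalling chain of the B cell receptor, was 93.8, 55.4 and 56.7 CPM in Male WT 3, Female WT 4 and Female WT 3, and between 0.265 and 17 CPM in the other 13 libraries. These 3 high libraries are 3 of the 4 whose sex transcripts go against the label, and the part of lymphoid tissue in the 1206 lower genes of WT was not tested. Slc10a2 was called lower within WT (-1.85) and not within Slfn3KO (-1.14), and the difference itself was not tested.

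**Figure D4:**
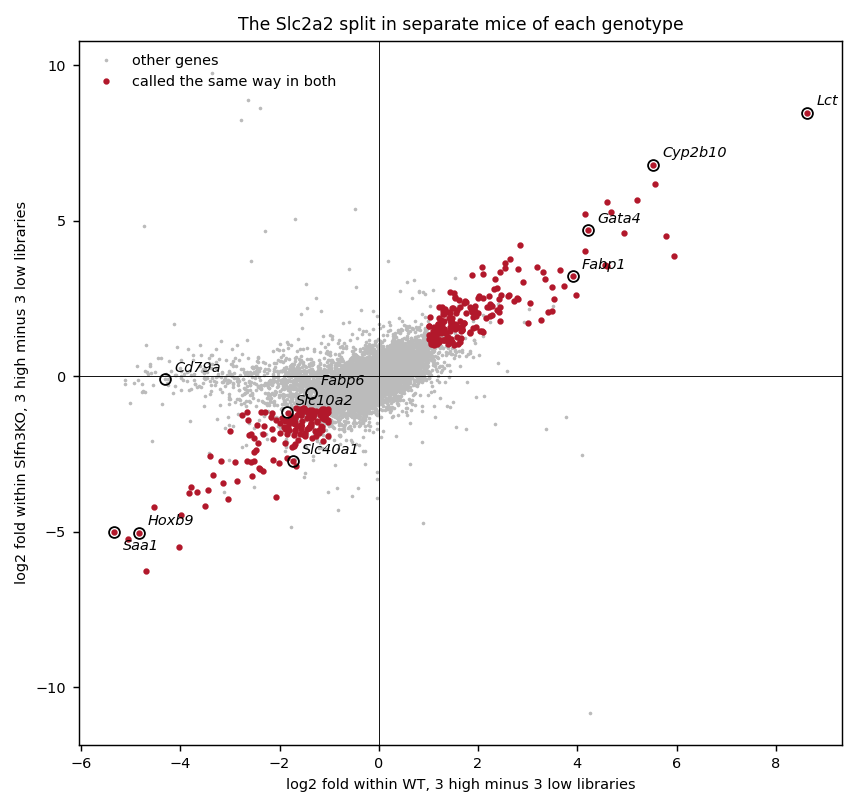
Log2 fold of the Slc2a2 split within WT (horizontal axis) and within Slfn3KO (vertical axis), each 3 high minus 3 low libraries, 1 point per gene, with genes called the same way in both in red. Lct, Gata4, Fabp1 and Cyp2b10 stand at the upper right and Hoxb9 and Saa1 at the lower left, while Cd79a lies far left at -4.3 within WT and near the line at -0.09 within Slfn3KO.

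The 6 middle libraries took no part in the calls, and their medians mostly lay in between. The median of the middle libraries stood between the medians of the sides for 269 of the 273 higher genes (98.5%) and for 137 of the 145 lower genes (94.5%), against 62.3% of all genes. The called genes were chosen for a wide gap between the sides, into which a middle median falls easily. The share of all genes is therefore not a like background, and nothing is concluded from these shares. Within the middle, the 3 libraries of higher Slc2a2 (Male Slfn3KO 2, Male WT 1 and Male Slfn3KO 1) were set against the 3 of lower Slc2a2 (Male Slfn3KO 3, Female Slfn3KO 3 and Male WT 3). The higher genes had a median fold of 0.66 there and were higher in 258 of 273, or 94.5%. The lower genes had a median of -0.81 and were higher in 5 of 145, or 3.45%, where all genes had a median of -0.01 and 48.6%. Male WT 3 stood apart from the other libraries of the lower 3. Lct was 141 and 107 CPM in Male Slfn3KO 3 and Female Slfn3KO 3 and 0.573 CPM in Male WT 3. Hoxb9 was 5.26, 2.62 and 33.0 CPM in the same order. The part of this 1 library in the folds within the middle was not tested.

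Slfn3KO and WT were then compared over all 16 libraries, with labelled sex as a covariate, since the ranking did not use genotype. With edgeR's quasi-likelihood test 0 of 14377 genes (0%) passed an adjusted p-value under 0.05 with a change of at least 1.5-fold, the smallest adjusted p being 0.335. At an unadjusted p under 0.05, 1743 genes passed without and 910 with the fold threshold, 207 higher and 703 lower in Slfn3KO, and DESeq2 called 43. Differences between the labelled sexes in the genotype effect were called for 0 genes (0%), with 1623 at an unadjusted p under 0.05 and 20 by DESeq2. Without the 4 libraries against their sex label, all of them WT, 431 genes were called for that difference. The WT libraries left in that fit were Male WT 1, Male WT 2, Female WT 1 and Female WT 2. The part of this small WT set, and of its place in the Slc2a2 ranking, was not tested.

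None of the 5 genes followed by genotype was called. Lct had a log2 fold change of -1.68 ± 1.83 (SE), Slfn3KO minus WT, with an adjusted p of 0.715 by edgeR's quasi-likelihood test. Gata4 had -0.77 ± 0.866 and Fabp1 -1.21 ± 1.02, with adjusted p-values of 0.725 and 0.645 in the same edgeR fit. Fabp6 (-0.26 ± 0.42) and Slc10a2 (-0.26 ± 0.437) were likewise not called.

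Of 41 proximal enterocyte genes 0 were called and 36 had a negative genotype fold, with a median of -0.3, where all genes had -0.02. Without the 4 libraries it was -0.63. The genotypes were unequally spread over the ranking in these same libraries, so this is no measure independent of the sides.

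By labelled group, Lct had a range of 0.573 to 511 CPM with a median of 262 CPM in Male WT, of 141 to 921 CPM (median 288 CPM) in Male Slfn3KO, of 0.451 to 1115 CPM (median 197 CPM) in Female WT and of 0.522 to 107 CPM (median 1.77 CPM) in Female Slfn3KO. The ranges of Male Slfn3KO and Female Slfn3KO did not overlap, and each WT group overlapped with every other group. For the difference between the labelled sexes in the genotype effect, female minus male, Lct had -4.73 ± 2.69 (SE) with an adjusted p of 0.472 by edgeR's quasi-likelihood test.

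**Figure D5:**
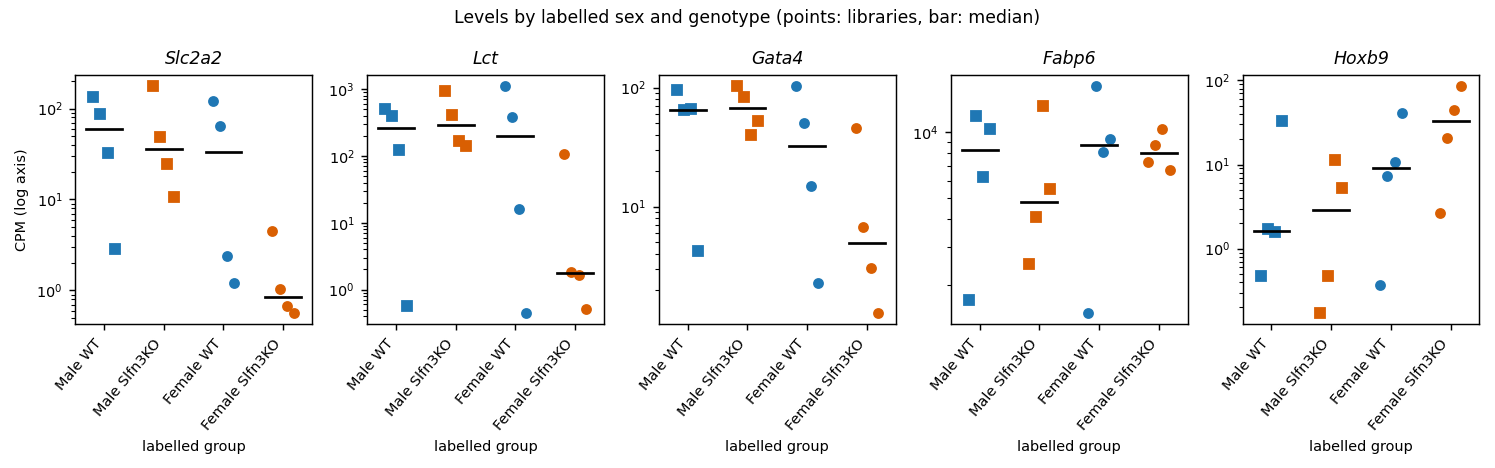
CPM (log axis) of 5 genes by labelled group, 1 point per library and a bar at the group median, 4 libraries per group. Lct and Gata4 fall low in 3 of 4 Female Slfn3KO libraries, in 1 of 4 Male WT and in 2 of 4 Female WT. Hoxb9 is at 10.9 CPM or more in these same libraries and in Male Slfn3KO 1. Slc2a2, the ranking gene, is at or under 4.48 CPM in all 4 Female Slfn3KO libraries.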

How the data were processed

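RNA of ileum mucosa from 16 mice was sequenced as single reads on an Illumina HiSeq from a stranded TruSeq kit. Per the file headers and the submitters' processing notes, the authors aligned reads to mm10 and deposited raw gene counts from featureCounts 1.4.6. The paper names another counter. Of 46078 identifiers, 45143 matched a symbol. Totals were 20823279 to 30813117 counts, and floors of 3 counts cover counting error only.

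Libraries were ranked by Slc2a2 CPM, and the 5 highest were compared with the 5 lowest as the difference of mean log2 CPM (edgeR 4.0.16, TMM factors, prior count 2), with no test. A gene was called when it differed at least 2-fold and the sides did not overlap. Low-count genes were removed with filterByExpr. Genotype was tested with edgeR's robust quasi-likelihood test (labelled sex and genotype, 16 libraries), with Benjamini-Hochberg adjusted p under 0.05 and 1.5-fold, and the sex difference with an interaction term. DESeq2 1.42.0 was an alternative. Other software was R 4.3.3, Python 3.11.15, numpy 2.4.6, pandas 2.3.3, scipy 1.17.1 and matplotlib 3.10.9. The scripts were tested on simulated data.

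Named genes were a core of ileal, proximal and cell type genes, the 10 largest folds in each direction among called genes with a mean of at least 10 CPM on the higher side, and list members. Other genes named, and the Hox group, were chosen after their values were seen. The members and lists were chosen with earlier results of these data known. Each library is 1 mouse per the study's methods, and p-values measure the spread between these mice. Alternatives covered the scaling, the filter, the prior count, the number of libraries per side, the ranking gene, the fold, the genotype or sex within which libraries were ranked, and leaving out libraries. The comparisons within labelled females and within libraries with female sex transcripts were chosen after seeing the data. Promoters came from RefSeq (GRCm38.p6). 1 gene of the named set is not reported here.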

Additional observations from a re-analysis of the deposited data

Results flagged for a closer look

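Of 96 sets of values checked, each a named gene in the 5 libraries of a side, 8 held a library far from the other 4 by Dixon's criterion. For normally spread values chance gives this in about 1 in 20 sets. The criterion was applied to CPM without logarithms, and the sets share the same libraries, so that rate is only a rough guide here. Female WT 4 stood above the other Slc2a2-low libraries in 5 of the 8 flagged sets. It had 15.9 CPM of Lct, where the next library had 1.86 CPM, and 1.33 CPM of Cyp2b10, where the next had 0.336 CPM. It also had 48.5 CPM of Fam151a against 12.3 CPM, 165 CPM of Enpp7 against 41.7 CPM and 3.09 CPM of Slc23a1 against 0.794 CPM. Female WT 4 is the Slc2a2-low library with the highest Slc2a2 level, and its sex transcripts went against its label.

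Female WT 2 stood apart on the Slc2a2-high side for 2 genes. It had 7.29 CPM of Hoxb9, where the next library had 1.71 CPM, and 4.02 CPM of Hoxb6, where the next had 1.1 CPM. It is the Slc2a2-high library with the lowest Slc2a2 level. Male Slfn3KO 4 had 328 CPM of the immunoglobulin joining chain gene Jchain, where the next Slc2a2-high library had 157 CPM.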

How the results depend on the processing

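The counts of 273 genes higher and 145 genes lower in the Slc2a2-high side moved with the choice of libraries. Sides of 4 gave 473 and 585, and leaving out each library in turn gave 238 to 344 and 126 to 260. With fewer libraries per side, no overlap is a looser limit, so counts at unlike side sizes are not like for like. The lower count was 260 without Female WT 4, 246 without Female Slfn3KO 4 and 227 without Female WT 2. Within WT the lower count was 1206, and within Slfn3KO the counts were 419 and 459. Within the labelled females they were 412 and 479, and within the libraries with female sex transcripts 670 and, for genes lower in the Slc2a2-high side, 939, both with 3 libraries per side. Among the libraries with female sex transcripts the high side was all WT and the low side all Slfn3KO. There the sides cannot be told apart from genotype. Within the labelled females the low side was also all Slfn3KO. A 1.5-fold limit gave 496 and 389, plain CPM gave 275 lower genes, and at least 10 counts in every library left 65 lower genes. Ranking by Fabp6, lowest first, gave 37 and 43, of which 5 and 3 were among the genes called by Slc2a2, and ranking by Slc10a2 gave 21 and 65, with 13 and 10 shared. Under the Fabp6 ranking Saa1 and Fut2 reversed, to 1.32 and 1.35. RLE factors gave 279 and 141 and sides of 6 gave 241 and 139. Of the other settings for single named genes, 1530 values moved by less than the spread between libraries and 72 by more. Many of these settings, such as the fold limit, the filters and leaving out a middle library, kept the same sides and scaling. The folds of single genes could not move there, so the 1530 overstates how steady they were. The causes were not tested.

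For genotype, 43 genes were called by DESeq2, 910 at an unadjusted p, 1 (Oas1c) with the Slc2a2 covariate and 1 (Oas1b) with the replicate number as a block. For the sex difference, DESeq2 called 20, the unadjusted p 921, the fit without the 4 WT libraries against their sex label 431, and the replicate block 0. Leaving out each library gave 0 in both. Same-numbered WT and Slfn3KO libraries deviated together with r of 0.161 to 0.535 in males and -0.39 to 0.148 in females, so that every pair passed 0.1 in males and 1 of 4 in females, and the numbers were not taken to pair the mice. With the Slc2a2 covariate, which the choice of these genes ties to their level, the folds of Lct, Gata4 and Fabp1 reversed to 1.6, 0.71 and 0.49, and without the 4 libraries those of Fabp6 and Slc10a2 to 0.18 and 0.87. Slc10a2 ran from -0.44 to 0.067 over the libraries left out, the last without Male WT 3.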

Other observations

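Several further gene groups were set side by side in the Slc2a2-high and Slc2a2-low libraries. Of 20 sterol synthesis genes 16 had a negative fold, with a median of -0.41 and 0 called. Of 19 circadian clock genes, Hlf, a transcription factor with a daily rhythm, was the 1 called, higher at 1.73, and the list's median was 0.41. None of 21 genes of PPAR alpha and fat oxidation (median 0.22), 19 interferon response genes (0.21), 18 immediate early and heat shock genes (0.27) or 9 MHC class II genes (-0.06) was called. The 12 goblet cell genes had a median of -0.12, the 10 tuft cell genes of -0.48 and the 11 genes of M cells and follicle epithelium of -0.4, with 0 called in each.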
